A study of Mus musculus with 15 samples.

Results

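Nodal and activin are secreted ligands of the TGF-beta superfamily, and 9 genes of their signalling pathway were followed across control and TET-depleted mouse embryonic stem cells (ESCs). The genes were taken by name from the 26061 genes of the expression table, and all 9 passed the filter for testing (19490 genes). They are the ligand genes Nodal, Inhba and Inhbb, the co-receptor gene Tdgf1 and the receptor gene Acvr2b, and the inhibitor genes Lefty1, Lefty2, Fst and Smad7. The cells were E14, an ESC line of 129/Ola background, grown without feeders in serum and leukaemia inhibitory factor, transduced with lentiviral pLKO.1 short hairpin RNAs (shRNAs) and collected after 3 days in puromycin. Total RNA depleted of rRNA was sequenced from 5 libraries each of cells with a non-targeting hairpin (shScr), a hairpin against Tet1 (shTet1) or a hairpin against Tet2 (shTet2). All groups thus share the viral transduction and the drug, and each TET gene was depleted with 1 hairpin.

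Nodal and activins bind pairs of type I and type II serine/threonine kinase receptors, which phosphorylate SMAD2 and SMAD3. These enter the nucleus with SMAD4 and switch on target genes, among them Nodal itself and its own inhibitors Lefty1 and Lefty2, so that the pathway limits itself. Nodal needs a co-receptor of the EGF-CFC family, such as the Tdgf1 product Cripto, whereas activin does not. In mouse ESCs the pathway is active from ligands that the cells make themselves, and in the embryo it patterns the epiblast and sets the left-right axis. TET enzymes oxidise methylated cytosine in DNA.

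Values are variance-stabilised expression on a log2-like scale, on which the table minimum of 4.25 stands for 0 reads. A difference is the mean of the first group minus that of the second. Differences were tested with limma in 1 fit over all 15 libraries, and a gene is called here when its p-value, adjusted by Benjamini-Hochberg over all 19490 genes, is under 0.05. Intervals are 95% confidence intervals (CIs) from this model unless another fit is named. Same-numbered libraries deviated together between shTet1 and shScr and between shTet1 and shTet2, and for these comparisons the fit with the replicate number as a block is given as well. Nothing in the sources states that replicates came from separate cultures, so that p-values measure the spread between these libraries only. Both comparisons with shScr use the same shScr libraries.

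The libraries held 15258291 to 35432425 reads in genes. Tet1 differed by −1.84 in shTet1 and Tet2 by −1.90 in shTet2, each with no overlap with shScr. All 10 embryonic stem cell markers searched, Pou5f1 and Nanog among them, were expressed, with a summed level of 91920 to 103916 normalised reads in shScr, 104030 to 110952 in shTet1 and 80581 to 92503 in shTet2. In each group, replicates 1 and 2 stood apart from replicates 3 to 5 on a principal component with 37.9% of the variance within groups.

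The members differed widely in level. Per kilobase of exonic length, Tdgf1 averaged 13265 ± 3044 normalised reads in shScr and lay above every other member in all 5 libraries (SD, n = 5 here and for the levels that follow). Next came Lefty2 with 664 ± 299, Nodal with 621 ± 209, Lefty1 with 325 ± 253, Smad7 with 268 ± 51.5 and Inhbb with 187 ± 72.8 normalised reads per kilobase. Each of these 5 overlapped its neighbour in the order, so that their order is not set beyond the spread. Acvr2b with 81.7 ± 10.3 and Fst with 51.1 ± 25 overlapped each other and lay below Inhbb. Inhba, at 1.24 ± 2.78, was close to 0. In shTet2 the level of Inhbb was 51.6 ± 18 normalised reads per kilobase.

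**Figure D1:**
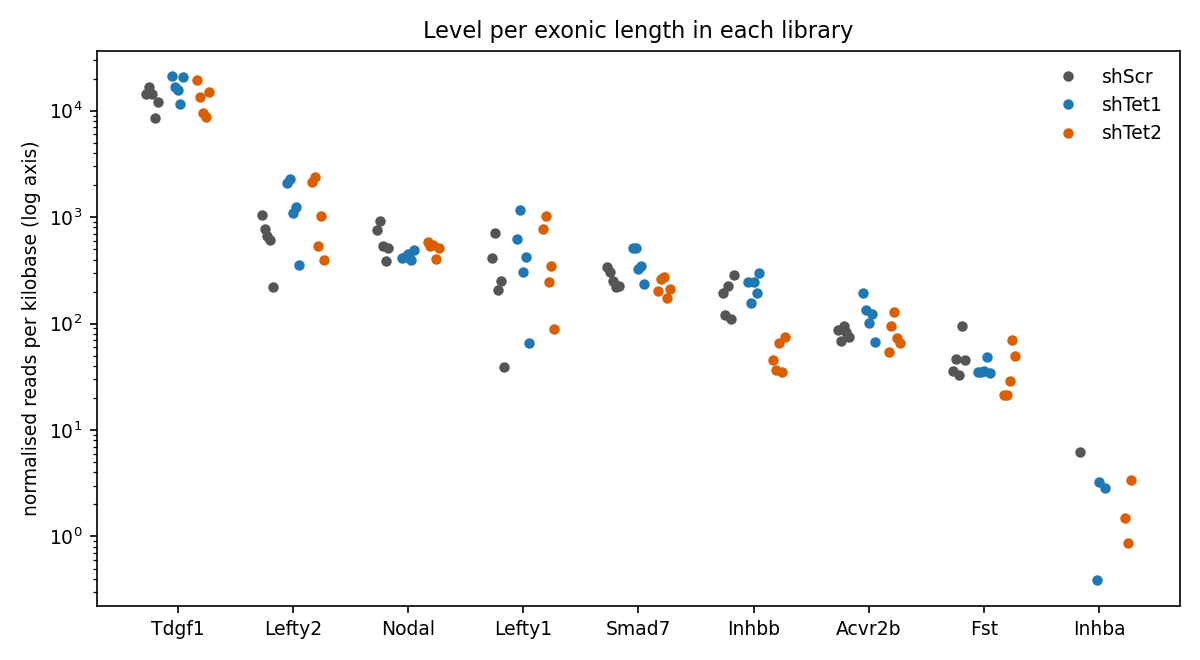
Normalised reads per kilobase of exonic length (log axis) of the 9 genes in each library, coloured by group, with 5 libraries per group. Libraries with 0 reads of Inhba, 4 in shScr, 2 in shTet1 and 2 in shTet2, are not drawn. Tdgf1 was the highest in every library, and Inhbb was lower in the 5 shTet2 libraries than in any other library.

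Of the 9 genes, 0 were called in shTet1 against shScr, where 0.0718% of all genes were, and 2 (Nodal and Smad7) had an unadjusted p under 0.05, as did 11.8% of all genes. With the replicate block the calls were Lefty1 and Lefty2, 2 of 9 against 4.8% of all genes, and 7 of 9 had an unadjusted p under 0.05 against 21% of all genes. In shTet2 against shScr, 1 of 9 was called (Inhbb) against 0.39% of all genes. With the replicate block, for which the pairing was weaker here, 3 of 9 were called (Inhbb, Lefty1 and Lefty2) against 840 of 19490 genes. Between shTet2 and shTet1, Inhbb and Smad7 were called, 2 of 9 against 4.24% of all genes, and the same 2 were called with the replicate block, against 11.2% of all genes. The median difference of the 9 genes was 0.37, −0.03 and −0.22 in these comparisons, and that of all genes tested was 0.01, 0.04 and 0.01.

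**Figure D2:**
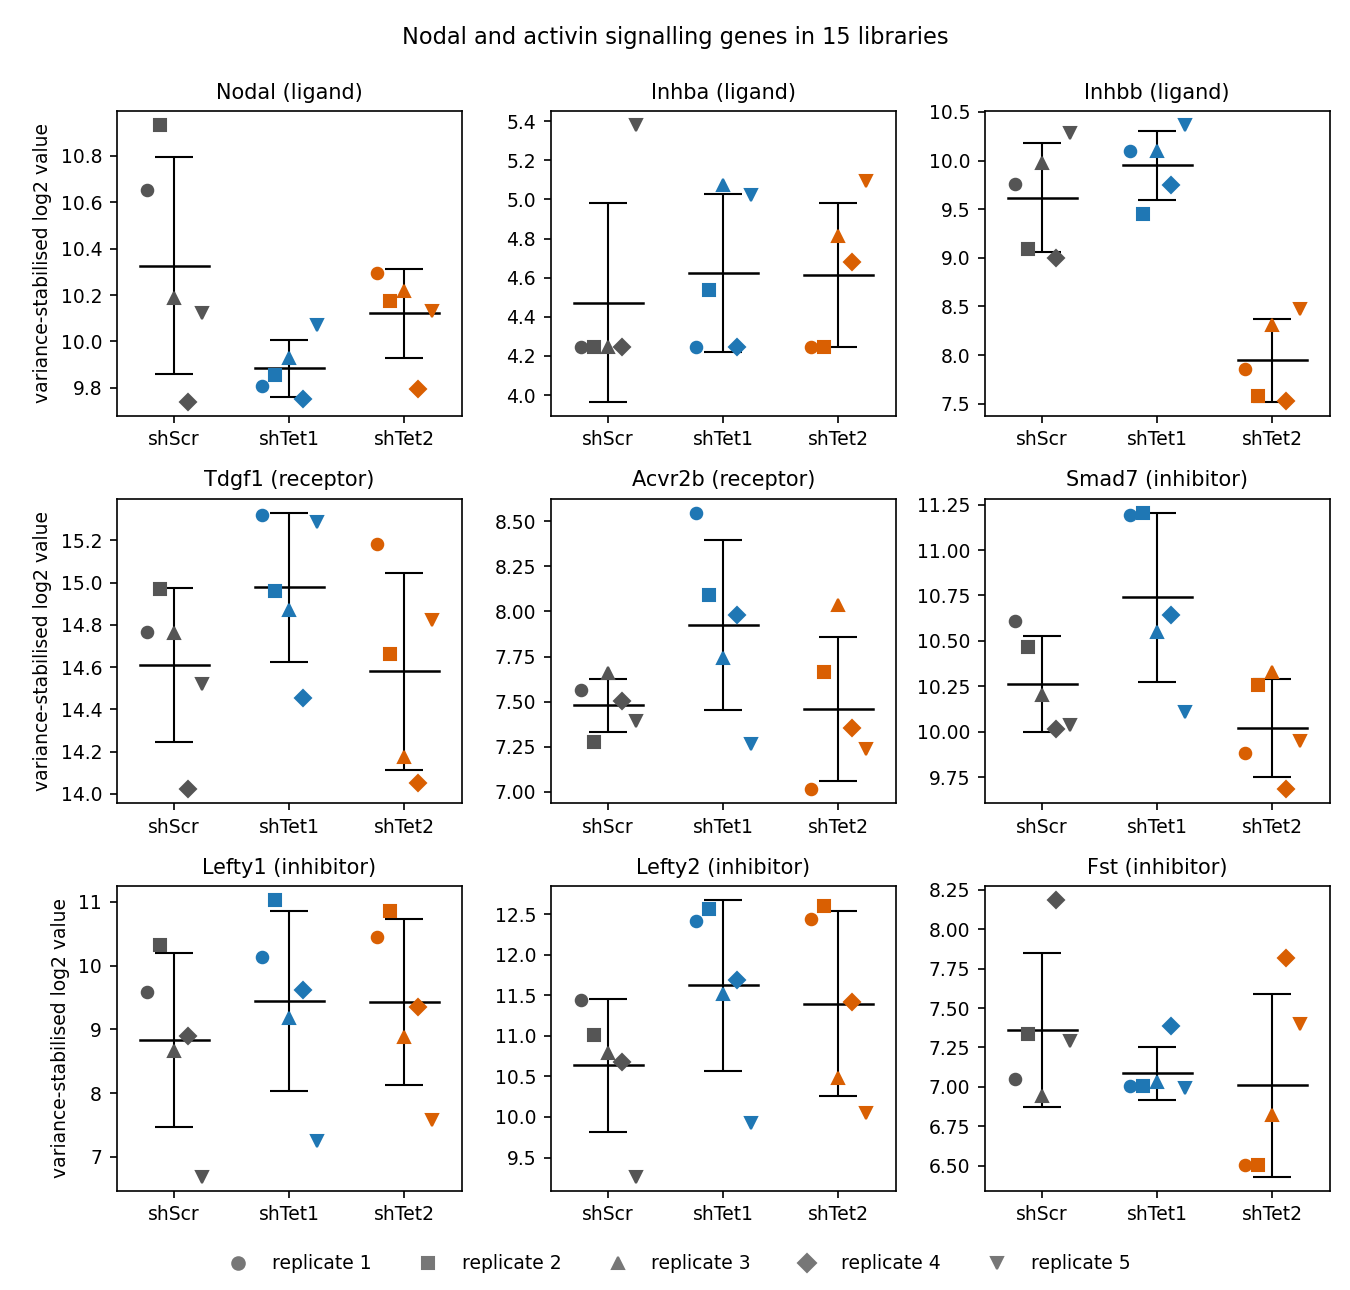
Variance-stabilised log2 value of each of the 9 genes in 15 libraries, with a panel per gene, the group on the x axis and the replicate number as the symbol. Horizontal lines are group means and bars are SDs (n = 5). Inhbb lay lower in all shTet2 libraries, while in the Lefty1 and Lefty2 panels replicate 5 was the lowest library of every group.

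Inhbb encodes the beta B subunit of activin B and of inhibin B. It was the only member whose level separated groups. The gene lies on chromosome 1 (121312042 to 121318825, mm9, reverse strand). The 250 bases before its start are shown because it was the member with the largest difference and because TETs act on methylated CG dinucleotides, which are in capitals (RefSeq start site on GRCm38.p6, matched to chr1:121318826-121319075 of mm9, read on the reverse strand).
Inhbb: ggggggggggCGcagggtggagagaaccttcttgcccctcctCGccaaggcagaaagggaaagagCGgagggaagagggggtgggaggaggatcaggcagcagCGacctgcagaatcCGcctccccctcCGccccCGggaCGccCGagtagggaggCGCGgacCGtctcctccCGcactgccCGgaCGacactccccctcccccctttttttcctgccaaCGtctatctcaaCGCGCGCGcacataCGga
This stretch holds 21 CG dinucleotides, as many as or more than 85.2% of 32851 promoter stretches of the same length, whose median was 6. The stretches of Nodal and Inhba hold 3 CG dinucleotides each, that of Tdgf1 7 and that of Acvr2b 24. Promoter stretches were matched for these 5 of the 9 genes, and DNA methylation was not analysed here. The motif search that follows covered these stretches only, not the introns or other sequence of the genes. The letters AATNCACA, a motif of the SMAD partner FOXH1, occurred on neither strand of these 5 promoters (3.18% of all promoters hold it), and CAGAC, a SMAD motif, occurred 1 time each in Tdgf1 and Acvr2b (42.2% of all promoters hold it).

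In the shScr libraries, from replicate 1 to 5, Inhbb had values of 9.75, 9.09, 9.97, 8.99 and 10.28. In shTet1 they were 10.09, 9.45, 10.09, 9.75 and 10.36, and in shTet2 7.85, 7.58, 8.31, 7.53 and 8.48. Every shTet2 library lay below every shScr and every shTet1 library, while shTet1 and shScr overlapped. Groups without overlap, in either direction, occurred for 2.7% of all genes in shTet2 against shScr, for 6.04% in shTet2 against shTet1 and for 2.62% in shTet1 against shScr, and among the 9 genes Inhbb alone was without overlap, in both comparisons of shTet2.

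Inhbb fell by 1.67 on TET2 depletion relative to shScr (SE 0.25, 95% CI −2.20 to −1.14, limma adjusted p = 0.00655). Its normalised reads averaged 220 ± 76.5 in shTet2, against 796 ± 310 in shScr (SD, n = 5 each), a share of 27.6%. The exact two-sided permutation p was 0.00794, the smallest that 5 against 5 libraries can give. The difference lay between −1.90 and −1.47 in the 5 same-numbered pairs, and it was −1.71 within replicates 1 and 2 and −1.65 within replicates 3 to 5. It passed the threshold in all 15 fits that each left out 1 library, with limma adjusted p-values of 0.00346 to 0.0349.

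Against shTet1 the difference of Inhbb in shTet2 was −2.0 (SE 0.25, 95% CI −2.53 to −1.47, limma adjusted p = 0.000156), with pairs between −2.24 and −1.79. In shTet1 against shScr it was 0.33 (−0.20 to 0.86), higher in 5 of 5 pairs. With the replicate block that interval was 0.09 to 0.57 and the limma adjusted p was 0.104. Hence Inhbb differed between the depletions, and a change in shTet1 itself did not pass the threshold.

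Markers of other cells moved beside this gene. Of 6 genes listed as markers of the rare 2-cell-like cells of ESC cultures, 4 were found (3 Zscan4 genes and Usp17l5, of families whose near-identical copies leave their reads uncertain), and none was at 0 in all libraries. Their summed level was 21147 to 38041 normalised reads in shTet2, 11309 to 17129 in shScr and 2184 to 11139 in shTet1. In shTet2 against shTet1 4 of 4 were called, all higher (4.24% of all genes were called). In shTet1 against shScr 0 of 4 were called, and with the replicate block 4 of 4 were, all lower (4.8% of all genes). In shTet2 against shScr 0 of 4 were called, and 4 of 4 had an unadjusted p under 0.05, as did 11.6% of all genes. The summed level of 10 primitive endoderm markers was 2718 to 4839 normalised reads in shTet2 and 4108 to 8167 in shScr, with 0 of 10 called in limma and 7 at an unadjusted p under 0.05. The summed level of the embryonic stem cell markers, given above, was also lower in every shTet2 library than in any shTet1 library. Of these 10 markers, 1 was called between the depletions, lower in shTet2 (4.24% of all genes were called). With the replicate block 2 were, both lower (11.2% of all genes). The summed level of 8 fibroblast markers overlapped between groups, at 3642 to 9558 normalised reads in shTet2, 2715 to 9301 in shScr and 2574 to 8460 in shTet1. Within each group it was highest in replicate 5, as was Inhbb. The summed levels of 8 primitive streak and mesoderm markers and of 4 neural markers overlapped between all groups. The part of these markers in the differences of Inhbb, and in that of Smad7 between the depletions, was not tested. In bulk RNA, fewer cells that express a gene and less of its RNA per cell cannot be told apart.

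Nodal itself (chromosome 10, 60880720 to 60888086, mm9) is the ligand that drives the pathway in the early embryo. Its values in shScr were 10.65, 10.93, 10.19, 9.74 and 10.12 for replicates 1 to 5. In shTet1 they were 9.81, 9.86, 9.93, 9.75 and 10.07, and in shTet2 10.29, 10.17, 10.22, 9.80 and 10.13. The groups overlapped, and only shScr replicates 1 and 2 stood above all depleted libraries.

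The difference of Nodal in shTet1 was −0.44 (SE 0.18, 95% CI −0.82 to −0.06), and it was not called (limma adjusted p = 0.328; exact permutation p = 0.0873). With the replicate block the interval was −0.74 to −0.14 and the limma adjusted p was 0.0841. The difference was −0.96 within replicates 1 and 2 and −0.10 within replicates 3 to 5, so that it rested on the former. In shTet2 it was −0.20 (−0.58 to 0.17) against shScr, and between the depletions it was 0.24 (−0.14 to 0.62). The summed level of 5 primed epiblast markers, Otx2 and Fgf5 among them, was likewise highest in shScr replicates 1 and 2, at 14146 and 17160 normalised reads, against 4640 to 10045 in the other shScr libraries and 7017 to 11333 in shTet1. In shTet2 replicates 1 to 3 it was 13485 to 13947 normalised reads, near that of shScr replicate 1, while their Nodal values lay below that of this library. Its part in the Nodal values was not tested.

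Inhba, which encodes the beta A subunit of activin A, was hardly expressed. It lies on chromosome 13 (16103684 to 16119044, mm9). It had 0 reads in 4 shScr, 2 shTet1 and 2 shTet2 libraries and at most 12 reads in any library. No difference was detectable at this depth. Of these genes for activin subunits, Inhbb was thus far the higher, also in the shTet2 libraries.

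Tdgf1 encodes Cripto, the co-receptor of Nodal, and is a marker of undifferentiated ESCs. The gene (chromosome 9, 110842114 to 110848662, mm9) shares 27.5% of its 50-base transcript stretches with 1 locus on chromosome 16, so that a part of its reads is uncertain in origin. Its values were 14.77, 14.97, 14.76, 14.02 and 14.52 for shScr, 15.32, 14.96, 14.87, 14.45 and 15.29 for shTet1, and 15.18, 14.66, 14.18, 14.05 and 14.82 for shTet2, each for replicates 1 to 5. Replicate 4 was the lowest library of every group, and all groups overlapped. The differences were 0.37 (95% CI −0.10 to 0.84) in shTet1 and −0.03 (−0.50 to 0.44) in shTet2 against shScr, and −0.40 (−0.87 to 0.07) between the depletions. The last was negative in 5 of 5 pairs, with a limma adjusted p of 0.0617 in the blocked fit.

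Acvr2b encodes a type II receptor that binds activin and Nodal (chromosome 9, 119311562 to 119342619, mm9). Its values were 7.57, 7.27, 7.66, 7.50 and 7.39 for shScr, 8.55, 8.09, 7.74, 7.98 and 7.27 for shTet1, and 7.02, 7.67, 8.04, 7.35 and 7.24 for shTet2. Of the shTet1 libraries, 4 lay above all shScr libraries and replicate 5 did not. The difference was 0.45 in shTet1 (95% CI −0.01 to 0.91) and −0.02 in shTet2 (−0.48 to 0.44) against shScr. Between the depletions it was −0.46 (−0.92 to −0.0023), with −0.98 within replicates 1 and 2 and −0.12 within replicates 3 to 5, and it was not called in either fit. Neither receptor gene thus passed the threshold in any comparison.

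**Figure D3:**
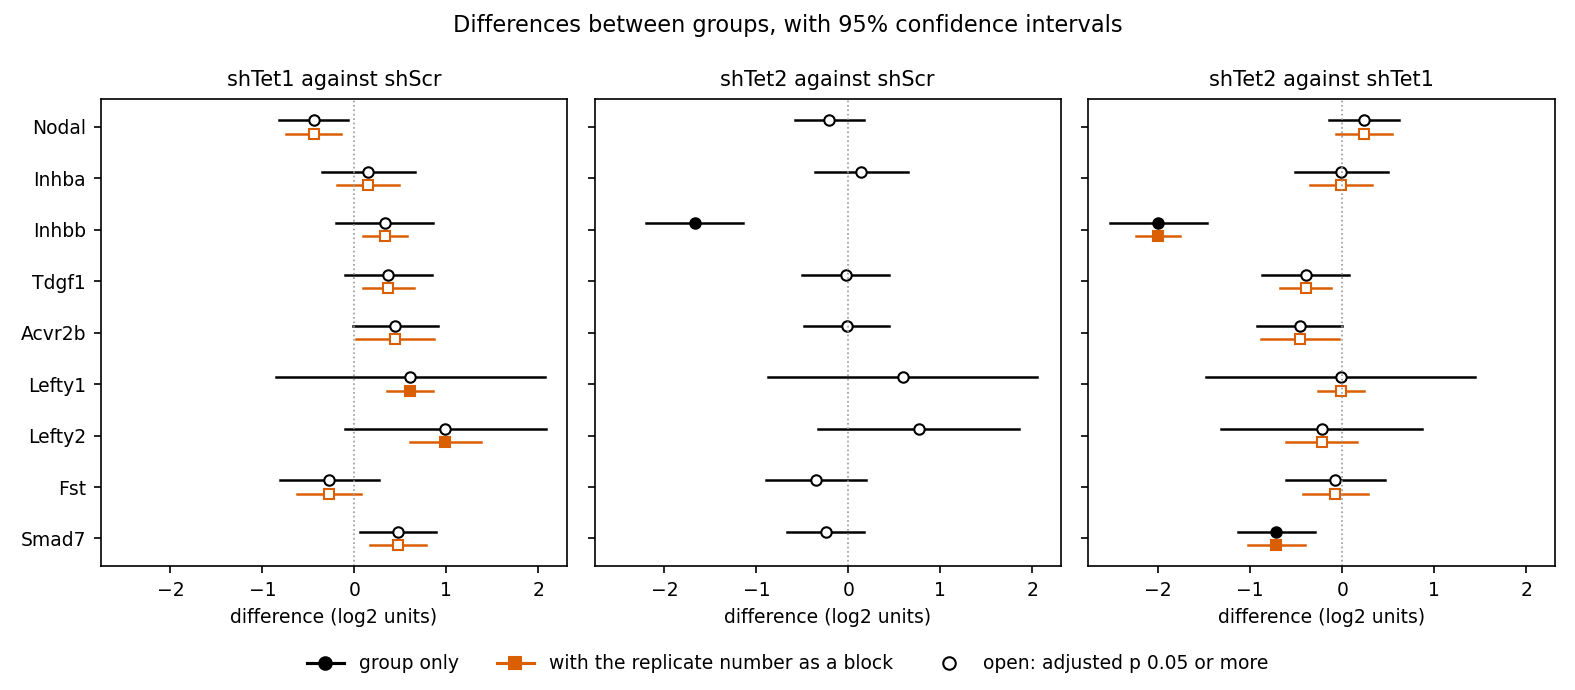
Difference of each gene between groups (x axis, log2 units) with its 95% confidence interval, in 3 comparisons. Black circles are the fit with the group only and orange squares the fit with the replicate number as a block. The block is drawn where the numbers paired the libraries, and thus not in shTet2 against shScr. Filled symbols have an adjusted p under 0.05: Inhbb in both comparisons of shTet2, Smad7 in shTet2 against shTet1, and Lefty1 and Lefty2 in shTet1 against shScr with the block.

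Lefty1 and Lefty2 encode secreted antagonists that bind Nodal and its co-receptor, and both are induced by Nodal signalling. They are neighbours on chromosome 1, with Lefty2 at 182823239 to 182829234 and Lefty1 at 182865153 to 182868531 (mm9), both on the forward strand and 35.9 kb apart. Their coding sequences are 91.9% identical (1017 of 1107 bases), which bears on how well reads tell them apart. The 60 bases of exon 1 that differ most are shown because reads from them tell the genes apart, with the 18 differing bases in capitals (Lefty1 chr1:182865274-182865333, Lefty2 chr1:182823348-182823407).
Lefty1, exon 1: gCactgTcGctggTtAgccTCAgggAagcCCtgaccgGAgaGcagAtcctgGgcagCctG
Lefty2, exon 1: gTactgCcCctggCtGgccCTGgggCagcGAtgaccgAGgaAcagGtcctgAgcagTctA
Of the 50-base stretches of the transcripts, 17.9% of those of Lefty1 and 11.6% of those of Lefty2 occur in the other gene. Over the genome, 14.3% of the Lefty2 stretches occur again elsewhere, at 6 loci on chromosomes 1, 6, 9, 12 and 13. Most stretches are thus particular to 1 of the genes, and the ratio of Lefty2 to Lefty1 normalised reads ranged from 1.62 to 8.39 over the libraries.

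The spread of both Lefty genes between replicates was wider than that of nearly all genes of like level. Lefty1 values were 9.59, 10.33, 8.66, 8.90 and 6.69 for shScr replicates 1 to 5, 10.14, 11.02, 9.17, 9.62 and 7.25 for shTet1, and 10.44, 10.86, 8.88, 9.35 and 7.58 for shTet2. Replicate 5 was the lowest and replicate 2 the highest library in each group. The within-group SD of Lefty1 was 1.36, as large as or larger than that of 99.9% of the 2095 genes within 0.5 units of its mean, whose median SD was 0.28. The replicate number accounted for 98.9% of this within-group variance, against a median of 56.9% over all genes.

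Lefty2 varied in a like way. Its values were 11.44, 11.01, 10.78, 10.68 and 9.26 for shScr, 12.42, 12.57, 11.51, 11.69 and 9.93 for shTet1, and 12.44, 12.60, 10.48, 11.42 and 10.05 for shTet2. Again replicate 5 was the lowest in each group, and 4 of 5 shTet1 libraries lay above all shScr libraries. The within-group SD of Lefty2 was 1.01, as large as or larger than that of 99.9% of the 1506 genes within 0.5 units of its mean, and 91.1% of that variance went with the replicate number. Over the 15 libraries, which share their numbers, the deviations of Lefty1 and Lefty2 from their group means had r = 0.95, and 0.91 without the 2 farthest libraries. Within replicates 3 to 5 (9 libraries) r was 0.95 and within replicates 1 and 2 (6 libraries) it was −0.02. Reads common to the genes may enter this value, and their part was not tested.

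Compared within replicate numbers, both Lefty genes rose on TET1 depletion. Lefty1 was higher in shTet1 in 5 of 5 pairs, by 0.52 to 0.72, with a mean of 0.61 (SE 0.12 and 95% CI 0.36 to 0.86 with the block, limma adjusted p = 0.0120). Lefty2 was higher in 5 of 5 pairs, by 0.66 to 1.56, with a mean of 0.99 (SE 0.18 and interval 0.60 to 1.38 with the block, limma adjusted p = 0.00931). Mean normalised reads of Lefty2 were 3709 ± 2059 in shTet1 and 1732 ± 781 in shScr, and those of Lefty1 were 908 ± 727 and 571 ± 445 (SD, n = 5 each). Without the block the intervals were −0.85 to 2.07 for Lefty1 and −0.10 to 2.08 for Lefty2. Neither gene was called there (limma adjusted p = 0.806 and 0.483, exact permutation p = 0.484 and 0.151). Nor was either called with replicates 1 and 2 against 3 to 5 as a covariate, a fit added after seeing the data (limma adjusted p = 0.568 and 0.160).

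The calls of the Lefty genes also depended on single replicate numbers. In blocked fits that left out 1 number of every group, they were lost without number 2 and without number 4, with limma adjusted p-values of up to 0.0798 for Lefty1 and 0.0700 for Lefty2, and held without each of the other 3. The size of the difference moved little, to 0.58 to 0.63 for Lefty1 and 0.85 to 1.07 for Lefty2. In shTet2 the differences from shScr were 0.59 (95% CI −0.87 to 2.05) for Lefty1 and 0.76 (−0.33 to 1.86) for Lefty2, and neither was called without the block. With the block both were called there (limma adjusted p = 0.0125 and 0.0302), with intervals of 0.34 to 0.84 and 0.38 to 1.15. Both calls were lost without number 1, 2, 4 or 5, and in this comparison only 4 of 5 same-numbered pairs had correlated deviations. Among same-numbered libraries Lefty1 was higher in shTet2 in 5 of 5, by 0.22 to 0.89, and Lefty2 in 4 of 5, with differences of −0.30 to 1.59. Between the depletions they were −0.02 and −0.22, with blocked intervals of −0.27 to 0.23 and −0.61 to 0.17, so that no difference between shTet1 and shTet2 was detected for either gene.

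**Figure D4:**
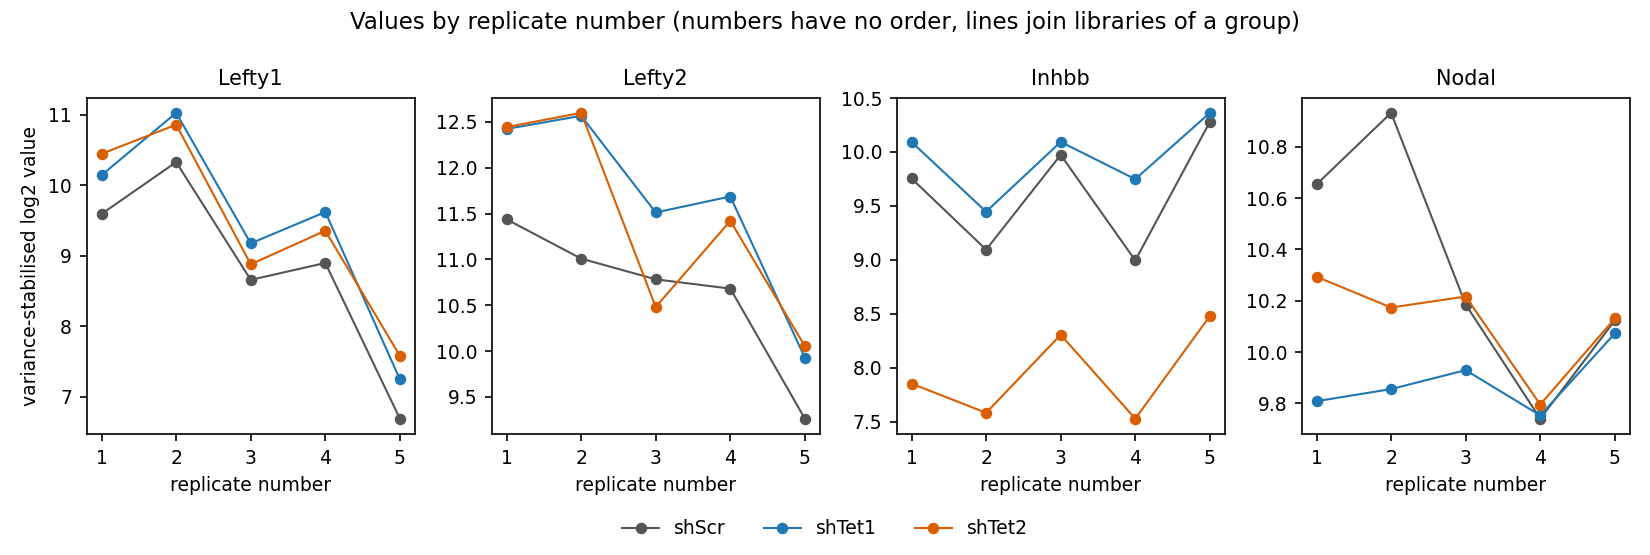
Variance-stabilised log2 values of Lefty1, Lefty2, Inhbb and Nodal (panels) by replicate number, with a line per group joining its 5 libraries for the eye (the numbers have no order). The shTet1 line of Lefty1 and of Lefty2 lay above the shScr line at all 5 numbers, the shTet2 line of Inhbb lay below both others, and the shScr line of Nodal stood apart at numbers 1 and 2 alone.

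Smad7 encodes an intracellular inhibitor that blocks type I receptors and, like the Lefty genes, is induced by the pathway (chromosome 18, 75527183 to 75555589, mm9). Its values were 10.61, 10.47, 10.20, 10.01 and 10.04 for shScr, 11.19, 11.21, 10.55, 10.64 and 10.11 for shTet1, and 9.88, 10.26, 10.33, 9.68 and 9.95 for shTet2. Of the shTet1 libraries, 4 lay above all shTet2 libraries, and replicate 5 lay within the shTet2 range.

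Smad7 was lower in shTet2 than in shTet1 by a difference of −0.72 (SE 0.20, 95% CI −1.14 to −0.30, limma adjusted p = 0.0478; exact permutation p = 0.0238). The direction was the same in 5 of 5 pairs, from −1.31 to −0.16, with −1.13 within replicates 1 and 2 and −0.44 within replicates 3 to 5. With the replicate block the limma adjusted p was 0.00412, and it stayed under 0.05 in all 5 blocked fits that left out 1 number (at most 0.0433). Without the block the call was kept on leaving out replicate 1 or 4 of shScr, replicate 5 of shTet1 or replicate 3 of shTet2, and lost without any of the other 11 libraries (limma adjusted p of up to 0.143). Relative to shScr the mean was above in shTet1, by 0.47 (95% CI 0.06 to 0.89), and below in shTet2, by −0.24 (−0.66 to 0.17). Neither passed the threshold (limma adjusted p = 0.351 and 0.717), and in the blocked fit shTet1 had 0.0712.

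Fst encodes follistatin, which binds activins and keeps them from their receptors (chromosome 13, 115242470 to 115249159, mm9). Its values were 7.05, 7.33, 6.94, 8.18 and 7.29 for shScr, 7.01, 7.01, 7.03, 7.39 and 7.0 for shTet1, and 6.51, 6.51, 6.82, 7.82 and 7.40 for shTet2. Replicate 4 was the highest library of each group. The difference was −0.27 in shTet1 (95% CI −0.81 to 0.27) and −0.35 in shTet2 (−0.89 to 0.19), and −0.08 (−0.62 to 0.46) between the depletions, all within the spread between replicates.

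Among the members, the deviations of Inhbb from its group means ran against those of Lefty1, with r = −0.76 over 15 libraries (−0.80 without the 2 farthest libraries). The deviations of Acvr2b and Smad7 had r = 0.75 (0.54 without the 2 farthest libraries, 0.84 within replicates 1 and 2 and 0.90 within replicates 3 to 5). These values describe libraries that share numbers and any factor behind them.

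Over 10579 well-expressed genes, those whose values ran most like Inhbb over the 15 libraries were Acot7 (r = 0.98), Slc25a15 (0.97), Snx18 (0.95), Ccdc127 (0.94) and Sdhc (0.93). Of these, Acot7, Slc25a15 and Snx18 also fell in shTet2 against shScr, by 1.07, 1.15 and 0.81. Their choice by values over all groups favours such a fall, which is thus no separate result. Their deviations from group means had r = 0.86, 0.85 and 0.75 with those of Inhbb. For Nodal the most alike were Ddx56 (0.95), Supt7l (0.94), Grwd1 (0.91), Slc25a38 (0.91) and Tmem167 (0.91). For Lefty1 they were Tmem63a (0.97), Arhgef4 (0.94), Hpn (0.93), Lefty2 (0.93) and Syt13 (0.92).

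Tmem63a lies next to Lefty1, and its start (chromosome 1, 182872475, mm9) is 3944 bases past the end of Lefty1 on the same strand. It was far lower than Lefty1, between 5.75 and 8.03 over the libraries, and it was 0.47 higher in shTet1 than in shScr (limma adjusted p = 0.697, and 0.0403 with the replicate block). BC031781, upstream of Lefty2, had r = −0.38 with Lefty1. The libraries in which the Lefty genes were high were thus also those in which their neighbour Tmem63a was.

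The rest of the pathway was followed in a list of 60 gene names by role, of which 57 were tested. Mstn and Cer1 were too low to be tested, and Tmepai was not matched. Of the 57, 0 were called in shTet1 against shScr in limma (0.0718% of all genes), with 8 at an unadjusted p under 0.05 (11.8% of all genes). In shTet2 against shScr 1 was called (0.39% of all genes), and between shTet2 and shTet1 4 were (4.24% of all genes), 1 higher and 3 lower. With the replicate block there were 3 calls in shTet1 against shScr (4.8% of all genes), all higher, and 9 between the depletions (11.2% of all genes), 3 higher and 6 lower. Apart from the 1 gene in shTet2 against shScr, these counts lie near what the shares of all genes give for 57 genes. The median difference of the list was 0.14 for shTet1 and 0.04 for shTet2 relative to shScr, and −0.06 between the depletions.

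Of the ligands and their processing enzymes, 0 of 9 were called in any comparison and either fit given here, with 1, 0 and 1 at an unadjusted p under 0.05 without the block, against 11.8%, 11.6% and 15.7% of all genes. The highest were Gdf3, a Nodal-related ligand, at 9.67 ± 0.12 in shScr, and Pcsk6, a convertase that cleaves Nodal, at 9.46 ± 0.34 (SD, n = 5 each). Their differences from shScr were −0.04 and 0.16 in shTet1 and 0.00 and −0.22 in shTet2.

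Among 8 other receptors, Tgfbr1 and Acvr2a had the highest values, 10.91 ± 0.22 and 9.55 ± 0.20 in shScr (SD, n = 5 each), and neither was called. Acvr1b, a type I receptor of activin and Nodal, was lower in shTet2 than in shTet1, with a difference of −0.61 and this direction in 5 of 5 pairs. It was called with the replicate block only (limma adjusted p = 0.00684, and 0.0663 without it).

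Among 15 other inhibitors, Skil and Ppm1a had the highest values, 13.49 ± 0.56 and 12.11 ± 0.25 in shScr (SD, n = 5 each), and were not called. Ldlrad4, listed in the table under its older name D18Ertd653e, encodes a membrane protein that restrains TGF-beta signalling. It averaged 7.43 ± 0.32 with shScr, 7.60 ± 0.09 with shTet1 and 6.63 ± 0.20 with shTet2 (SD, n = 5 each). D18Ertd653e fell by 0.80 in shTet2 against shScr (SE 0.17, limma adjusted p = 0.0372) and by 0.97 against shTet1 (SE 0.17, limma adjusted p = 0.00176), in 5 of 5 pairs each. The latter was called in all 15 fits that left out 1 library. The former was called without shScr replicate 5 or shTet1 replicate 1 or 5 and lost without any of the other 12 (limma adjusted p of up to 0.128). Smad6 and Smurf2 were lower in shTet2 than in shTet1 with the block only, by differences of −0.69 and −0.28 (limma adjusted p = 0.0238 and 0.0457). Smurf2 lost this without any 1 replicate number, and Smad6 without number 1, 2 or 4.

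Among 10 transducers and nuclear partners, Trim33 and Ep300 had the highest values, 12.07 ± 0.25 and 11.08 ± 0.32 in shScr (SD, n = 5 each), and were not called. Zfyve9, whose product SARA presents SMAD2 and SMAD3 to the receptors, averaged 9.18 ± 0.28 with shScr, 9.94 ± 0.23 with shTet1 and 9.30 ± 0.30 with shTet2 (SD, n = 5 each). Zfyve9 was higher in shTet1 than in shScr by 0.76 (limma adjusted p = 0.00668 with the block and 0.0773 without it), and the blocked call was lost without number 2 or 4 (limma adjusted p of up to 0.0533). It fell by 0.64 in shTet2 relative to shTet1 (limma adjusted p = 0.0373). The latter call was lost without shTet1 replicate 1, 2, 3 or 4 or shTet2 replicate 1, 2 or 5 (limma adjusted p of up to 0.109), and kept in all 5 blocked fits that left out 1 number. Smad3 was 0.63 higher in shTet1 than in shScr, called with the block only (limma adjusted p = 0.0356), and kept this without number 5 alone.

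Among 15 genes listed here as targets of the pathway, Nanog and Otx2 had the highest values. Nanog, a pluripotency factor, averaged 12.97 ± 0.49 with shScr, 13.19 ± 0.26 with shTet1 and 12.78 ± 0.55 with shTet2 (SD, n = 5 each) and was not called. Otx2, a factor of the primed epiblast, averaged 9.76 ± 0.52 with shScr, 9.47 ± 0.38 with shTet1 and 10.48 ± 0.36 with shTet2 (SD, n = 5 each). Otx2 was 1.01 higher in shTet2 than in shTet1 (SE 0.24, limma adjusted p = 0.0192), in 5 of 5 pairs. Eomes, a T-box factor of the primitive streak, was low, at 6.59 ± 0.42, 7.39 ± 0.24 and 6.45 ± 0.39 in the same order of groups (SD, n = 5 each). Eomes was 0.80 higher in shTet1 than in shScr with the block (limma adjusted p = 0.0176, and 0.133 without it), and it fell by 0.94 in shTet2 relative to shTet1 (limma adjusted p = 0.0185).

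The blocked call of Eomes in shTet1 against shScr was lost without number 1 or 4 (limma adjusted p of up to 0.112). Leaving out 1 library ended the call of Eomes between the depletions without shTet1 replicate 1 or shTet2 replicate 1, 2 or 4, and that of Otx2 without shTet2 replicate 1 or 2 (limma adjusted p of up to 0.0562 and 0.0617). With the block the calls of both between the depletions were kept in all 5 fits that left out 1 number. Id1, also in this list, was called higher in shTet2 than in shTet1 with the block only, by 0.64 (limma adjusted p = 0.0336), and lost this without most single numbers. The genes of the list that were called between the depletions thus moved in both directions, also with Id1 left aside.

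**Figure D5:**
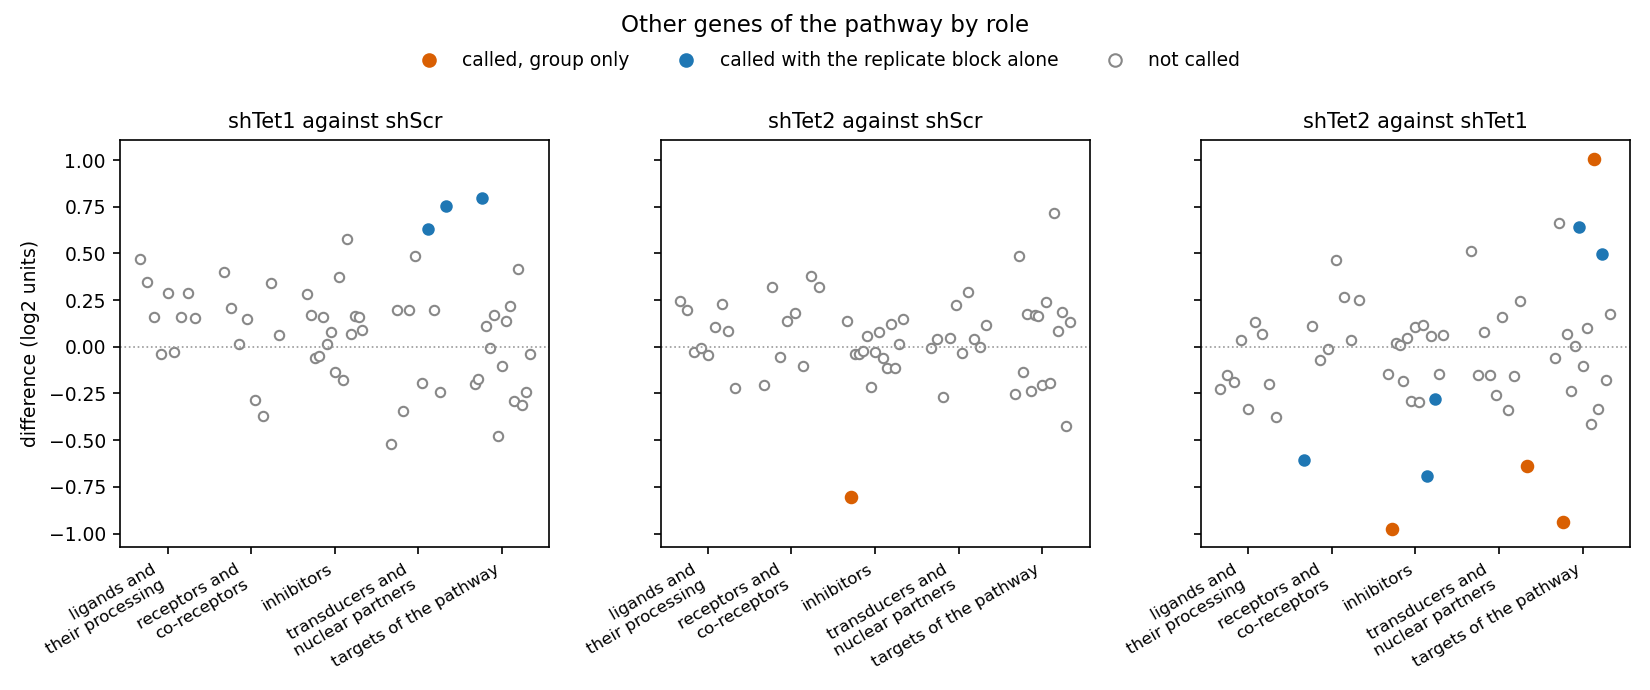
Difference between groups (y axis, log2 units) of 57 other genes of the pathway, by role, in 3 comparisons, with a point per gene. Orange points were called in the fit with the group only (0, 1 and 4 genes), blue points with the replicate block alone (3 genes in shTet1 against shScr and 5 in shTet2 against shTet1; the block is not shown for shTet2 against shScr), and open points were not called.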

How the data were processed

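Gene RNA of 15 E14 libraries was analysed. Per the submitters' processing notes and the study's methods, reads were trimmed with Trim Galore 0.3.3, aligned to mm9 with TopHat2 2.0.9, counted per gene in Seqmonk and normalised with DESeq2. The deposited table by the authors holds variance-stabilised log2 values of 26061 genes. Inverting the stabilising function returned whole numbers of reads (tolerance 0.05) for 100% of values over the minimum, and normalised reads are reads divided by the library's scaling factor. The gene annotation used by the authors and the use of strand in counting are not given in the sources used here. By GENCODE vM1, no member shares exonic bases with another gene. A deposited table of repeats and small RNA libraries were not used here.

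The filter kept genes over the minimum in 5 or more of 15 libraries, which were tested with limma 3.58.1 in R 4.3.3 (lmFit, contrasts, eBayes with trend, two-sided), on group alone, and adjusted by Benjamini-Hochberg over 19490 genes within each comparison. The test recovered known changes of 2 units in simulated data whose libraries varied independently. It was not tried on smaller changes or on libraries that deviate together by replicate number. The 9 genes, the gene lists, the tests and the alternatives were chosen with earlier results of these data known. No p-value was adjusted over a list alone. Correlations of same-numbered libraries' deviations from group means, across genes, had a range of 0.374 to 0.657 for shTet1 with shScr and of 0.330 to 0.731 for shTet1 with shTet2. The replicate numbers were therefore taken as pairing the libraries of these groups. In each of these comparisons 4 of 5 libraries were closest to their own number. The named genes were the 9 members, the genes of the list that were called and the 2 highest of each role, and the 5 genes with a symbol most correlated with Nodal, Lefty1 and Inhbb, among genes at least 2 units over the minimum. Neighbours of the Lefty genes were named after their values were seen. A called gene of the list, a neighbour and a sequence are not reported here. Within groups, the correlation of 2 libraries was 0.969 to 0.994.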

Additional observations from a re-analysis of the deposited data

Results flagged for a closer look

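Inhba in shScr replicate 5 had a value of 5.38 (12 reads), while the other 4 shScr libraries had 0 reads, and Fst in shTet1 replicate 4 had a value of 7.39, with the other 4 shTet1 libraries at 7.0 to 7.03. These libraries lay farther from the rest of their group than Dixon's 95% limit allows. Of 27 groups of 5 libraries examined, 2 were marked in this way, and chance marks about 1 in 20. This rate does not hold for Inhba, since beside 4 libraries tied at 0 reads any library with reads is marked. The effects of TET1 and TET2 depletion differed, by the direct comparison of shTet2 with shTet1, for Inhbb (−2.0, limma adjusted p = 0.000156) and for Smad7 (−0.72, limma adjusted p = 0.0478).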

How the results depend on the processing

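Inhbb was called in both comparisons of shTet2 in every alternative fit run with a test. For shTet1 against shScr, 14 genes were called, and 22 with a strict filter (above the minimum in all libraries), 3 with the compared groups alone, 22 with quantile normalisation, 56 with array weights and 264 with replicates 1 and 2 against 3 to 5 as a covariate (an alternative added after seeing the data). For shTet2 against shScr, 76 genes were called (43 higher, 33 lower), and 39 with median centring (5 higher, 34 lower), 45 with quantile normalisation (16 higher, 29 lower), 48 on log2 of reads plus 1, 283 with array weights, 266 with that covariate and 37 without every replicate 5 (also added later). For shTet2 against shTet1, 827 were called (561 higher, 266 lower), and 764 with median centring (437 higher, 327 lower), 1246 with array weights and 1263 with the covariate. Median centring moved the median difference of all genes from 0.04 to −0.07 in shTet2 against shScr.

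The replicate block gave 935, 840 and 2178 genes in the 3 comparisons, with 2, 3 and 2 members called and 3, 2 and 9 genes of the pathway list. With median centring added, it gave 839, 855 and 2278 genes (346 higher and 493 lower in shTet1 against shScr) and 2, 3 and 2 members. In shTet2 against shScr, where 4 of 5 same-numbered pairs had correlated deviations (0.00789 to 0.769, with 3 of 5 libraries closest to their own number), the replicate block added Lefty1 (0.59, limma adjusted p = 0.0125) and Lefty2 (0.76, 0.0302), both lost without number 1, 2, 4 or 5, and Otx2 in the list. It called 4 of 10 primitive endoderm markers lower and 1 of 4 2-cell-like markers higher there. In shTet1 against shScr the block also added Lefty1 and Lefty2, and between the depletions it changed no call of a member.

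The members called between shTet2 and shTet1 fell from 2 to 1, with Smad7 lost, without a filter, without the variance trend, in the compared groups alone and with quantile normalisation. Leaving out 1 library gave 1 to 171 genes in shTet1 against shScr (1 without shScr replicate 2 or shTet1 replicate 1, 2 or 4, and 171 without shTet1 replicate 5), 10 to 99 in shTet2 against shScr and 512 to 902 in shTet2 against shTet1, with 1 to 2 members called in the last.

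Differences that were not called changed sign as follows. In shTet2 against shScr, Inhba was −0.011 with quantile normalisation and −0.046 with array weights, Tdgf1 was 0.066 and 0.048 under the same, and Acvr2b was 0.018 without every replicate 5. Leaving out 1 library gave −0.18 to 0.10 for Tdgf1 and −0.16 to 0.094 for Acvr2b. In shTet2 against shTet1, Lefty1 was 0.12 with array weights. Leaving out 1 library there gave −0.13 to 0.10 for Inhba, −0.57 to 0.44 for Lefty1, −0.65 to 0.11 for Lefty2 and −0.28 to 0.050 for Fst. The causes were not tested. Depth limits Inhba, which had at most 12 reads.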
